A study of Mus musculus with 10 samples.

Results

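The 38 genes described here encode the Fanconi anaemia proteins, the proteins of homologous recombination and the kinases of the DNA damage checkpoint. They were a list of names, chosen for their known function, with earlier results of these data known. Each was followed on mouse arrays in the probe set of that gene with the highest mean over all arrays. Of the 38, 36 had a probe set listed for that gene alone, among 18193 genes with such a probe set. Xrcc2 and Rbbp8 were not analysed here.

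The cells were bone marrow cells of C57BL/6 mice aged 5 to 6 weeks, enriched as lineage-negative and Sca1-positive, cultured with IL-3, IL-6 and SCF, and given MigR1 retrovirus in 2 rounds 24 hours apart. The virus carried GFP alone (3 samples), AML1/ETO (3 samples) or AML1/ETO with the W692A substitution (4 samples), and 25000 live GFP-positive cells with the Lin-Sca1+cKit+ surface were sorted 48 hours after the second round. AML1/ETO is a fusion of the DNA-binding part of RUNX1 with the corepressor ETO found in acute myeloid leukaemia, and the W692A change lies in the MYND domain of ETO, which the series' title ties to recognition of the corepressors SMRT and N-CoR. The labels name no other genetic change in any group, the fusion came from a retroviral vector on top of the cells' own genes, and only GFP-positive cells were measured. RNA (50 ng a sample) was amplified in more than 1 round and hybridised to 1 Affymetrix array a sample. The labels describe independent transductions and do not say whether these came from separate mice, so a p-value measures the spread between transductions. No batch or date is given in the sources used here.

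Values are log2 intensities from RMA, which gives the single probes of all arrays the same distribution and then summarises them per probe set. The summarised values need not share 1 distribution, and their medians ran from 0.93 (GFP replicate 2) to 1.01 (W692A replicate 3). Any 2 arrays of a group correlated at 0.9895 to 0.9935 over all probe sets, and any 2 of different groups at 0.9619 to 0.9848. A value of 2.04, the highest that any bacterial control probe set reached on any array, was taken as the background bound. Kit, whose protein was part of the sort gate, lay below this bound on every array (up to 1.97), whereas Cd34, another progenitor gene, ranged from 4.79 to 6.90. The B and T lymphoid markers had 1 of 8 measured genes above the bound, Cd79b, and none of the 8 was called in any comparison.

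In the Fanconi pathway a nuclear core complex, with FANCL as its ubiquitin ligase, marks the FANCD2-FANCI pair at a replication fork stalled by an interstrand crosslink. Repair then passes to nucleases, to BRCA1, PALB2 and BRCA2, and to the mediators of strand exchange, so that the break is copied from the sister chromatid. ATM and ATR sense broken ends and exposed single strands and act through CHEK2 and CHEK1 to hold the cell cycle, and many of these genes are transcribed mainly in S phase, so that cycling blood progenitors express them and loss of a Fanconi gene leads to marrow failure in patients.

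Because the promoters of S phase genes often hold E2F and CCAAT sites, and the fusion keeps the RUNX DNA-binding domain, the 250 bases before the start of each gene were searched on both strands. The words were TTTCCCGC, TTTCGCGC, TTTGCCGC and TTTGGCGC for E2F, CCAAT for the CCAAT box, TTTGAA for the cell cycle homology region (CHR) and TGTGGT and TGCGGT for RUNX. Windows of RefSeq (GRCm38.p6) were matched for 30 of the 36 measured genes and not for Fancd2, Exo1, Nbn, Rad54b, Rad50 and H2ax. An E2F word lay in 6 of the 30 (20%), against 1.86% of 32851 windows of that length: Brca2, Topbp1, Chek2, Bard1, Fancg and Mdc1. The CCAAT box lay in 18 (60%, against 33.8%), the CHR word in 1 (3.33%, against 16%) and a RUNX word in 7 (23.3%, against 18.6%). The 32851 windows were all those of the RefSeq set used, whether or not their genes were measured here. They were not matched to the 30 in expression or base composition. No word of 1 motif overlapped a word of another in these windows. Of the 19 genes with a window that fell with AML1/ETO (below), 3 held an E2F word, 12 the CCAAT box, 0 the CHR word and 4 a RUNX word. Of the genes with an E2F word, Brca2, Topbp1 and Chek2 fell and Bard1, Fancg and Mdc1 passed no test. The part of these words in the fall was not tested. A match describes letters and not a bound site, and a window without a match says only that these letters are not in it.

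Each of 5 windows is printed in the direction of transcription, 5′ to 3′, with the words found in capitals. Brca2 (chr5:150522371-150522620, plus strand) and Topbp1 (chr9:103305077-103305326, plus strand) are shown for their E2F words, which lie 168 to 161 and 129 to 122 bases before the start. Xrcc3 (chr12:111813880-111814129, minus strand) is shown because it held 6 CCAAT boxes and belonged to the genes with the steepest fall. Atr (chr9:95857347-95857596, plus strand) is shown for a RUNX word 11 to 6 bases before the start, and Fancb (chrX:164980342-164980591, plus strand), with 1 CCAAT box 201 to 197 bases before the start, because it was the only gene among the 36 that rose with AML1/ETO.
Brca2: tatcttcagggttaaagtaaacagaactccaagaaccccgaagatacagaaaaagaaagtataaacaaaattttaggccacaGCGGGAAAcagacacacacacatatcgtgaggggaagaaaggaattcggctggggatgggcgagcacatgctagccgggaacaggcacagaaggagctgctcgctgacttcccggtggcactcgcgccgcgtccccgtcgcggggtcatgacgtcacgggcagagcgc
Topbp1: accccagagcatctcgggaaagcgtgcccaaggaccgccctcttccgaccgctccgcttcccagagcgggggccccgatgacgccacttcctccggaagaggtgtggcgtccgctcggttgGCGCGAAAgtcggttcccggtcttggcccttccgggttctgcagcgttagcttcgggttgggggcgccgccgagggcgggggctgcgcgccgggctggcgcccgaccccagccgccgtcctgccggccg
Xrcc3: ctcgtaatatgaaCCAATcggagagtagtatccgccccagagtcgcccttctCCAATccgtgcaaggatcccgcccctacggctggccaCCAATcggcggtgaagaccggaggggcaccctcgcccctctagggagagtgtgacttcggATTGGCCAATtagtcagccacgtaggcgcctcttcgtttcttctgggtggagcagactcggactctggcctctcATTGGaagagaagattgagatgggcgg
Atr: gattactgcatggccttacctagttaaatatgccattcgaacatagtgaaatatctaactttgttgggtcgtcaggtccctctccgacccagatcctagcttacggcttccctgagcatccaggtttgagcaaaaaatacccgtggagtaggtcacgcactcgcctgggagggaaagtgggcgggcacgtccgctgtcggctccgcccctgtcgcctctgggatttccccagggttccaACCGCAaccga
Fancb: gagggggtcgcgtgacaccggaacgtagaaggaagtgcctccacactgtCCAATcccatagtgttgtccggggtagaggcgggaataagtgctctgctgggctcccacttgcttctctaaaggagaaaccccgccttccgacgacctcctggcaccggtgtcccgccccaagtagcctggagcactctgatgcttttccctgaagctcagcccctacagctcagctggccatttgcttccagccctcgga

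Most of these genes were lower with AML1/ETO than with the GFP vector, fewer were lower with W692A, and 17 were higher with W692A than with AML1/ETO. Of the 36 measured genes, 24 fell with AML1/ETO, 1 rose (Fancb) and 11 passed no test (a limma adjusted p under 0.05, over all 18193 genes). Over all genes 15.8% fell and 12.9% rose (28.6% in either direction). The median difference of the 36 was -0.63 on the log2 scale, against -0.02 over all genes. For the 28 with a group mean above the background bound the counts were 22 fallen and 1 risen and the median was -0.84, where 29.9% of all genes above the bound fell, 22.7% rose (52.6% in either direction) and their median was -0.07. All AML1/ETO arrays lay below all GFP arrays for 26 of the 36 genes, against 21% of all genes, and above them for 1, against 18.1%.

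With W692A against GFP, 9 genes fell (Palb2, Xrcc3, Mre11a, Nbn, Exo1, Atm, Atr, Topbp1 and Chek1) and 2 rose (Fancb and Fancl), where 9.07% of all genes fell and 5.45% rose (14.5% in either direction). All 11 were among the 28 above the bound, where 17.7% of all genes fell and 10.2% rose (27.8% in either direction). The arrays did not overlap for 12 lower genes (12.5% of all genes) and 2 higher genes (9.85%). The median of the 36 was -0.20, against 0.01 over all genes. W692A was then set against AML1/ETO directly, which tests whether the 2 fusions differed. In that test 17 of the 36 genes were higher with W692A, none was lower and 19 passed no test, against 9.61% higher and 11.1% lower over all genes, (20.7% in either direction), with a median of 0.44 against 0.03. All 17 were above the bound, where 19.2% of all genes were higher and 20.7% lower (39.9% in either direction). All W692A arrays lay above all AML1/ETO arrays for 18 genes (13.7% of all genes) and below them for 0 (13.5%). Both comparisons with the vector share its 3 arrays.

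The W692A comparison with GFP moved with a measure of RNA quality. The Gapdh control probe sets at the 3′ end exceeded those at the 5′ end by 4.93 ± 0.0889 (SD, n = 3, log2) with GFP and by 4.01 ± 0.168 (SD, n = 4) with W692A, and every W692A array was lower than every GFP array. With this difference as a covariate only Fancb was called among the 36 genes. Over all 18193 genes 506 were called, against 2642 without the covariate. The median size of the 11 called differences went from 0.71 to 0.39, and their median SE from 0.15 to 0.24. Without GFP replicate 2, 7 genes were called, 6 lower and 1 higher, and 1956 over all genes. With AML1/ETO the Gapdh difference was 4.08, 4.01 and 5.04, with an SD of 0.573, the widest of the 3 groups. The fit takes the slope of the covariate from the spread within groups. AML1/ETO replicate 3 therefore weighed heavily in it, also for W692A against GFP, to which that array does not belong. On AML1/ETO replicate 3, the array with the highest of these, all 24 fallen genes were below every GFP array. In 17 of the 24 it was the highest array of its group. Without it, 23 genes were called against GFP and 18 against W692A (4799 and 3137 over all genes). The AML1/ETO arrays left were below every GFP array in the Gapdh difference. In that fit the fusion and the Gapdh difference cannot be told apart for AML1/ETO against GFP. The 18S ribosomal RNA control probe sets also separated the groups, at 7.95 ± 0.196 (SD) with GFP, 8.40 ± 0.236 with AML1/ETO and 8.76 ± 0.181 with W692A, so that every array of either fusion was above every GFP array. The part of the 18S level in the results was not tested. The Gapdh covariate left 20 genes called for AML1/ETO against GFP (3876 over all genes, against 5207 without it). It ended the calls of Fanca, Fancm, Brip1, Chek2 and H2ax. For W692A against AML1/ETO all 17 stayed called (3150 over all genes, against 3765).

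**Figure D1:**
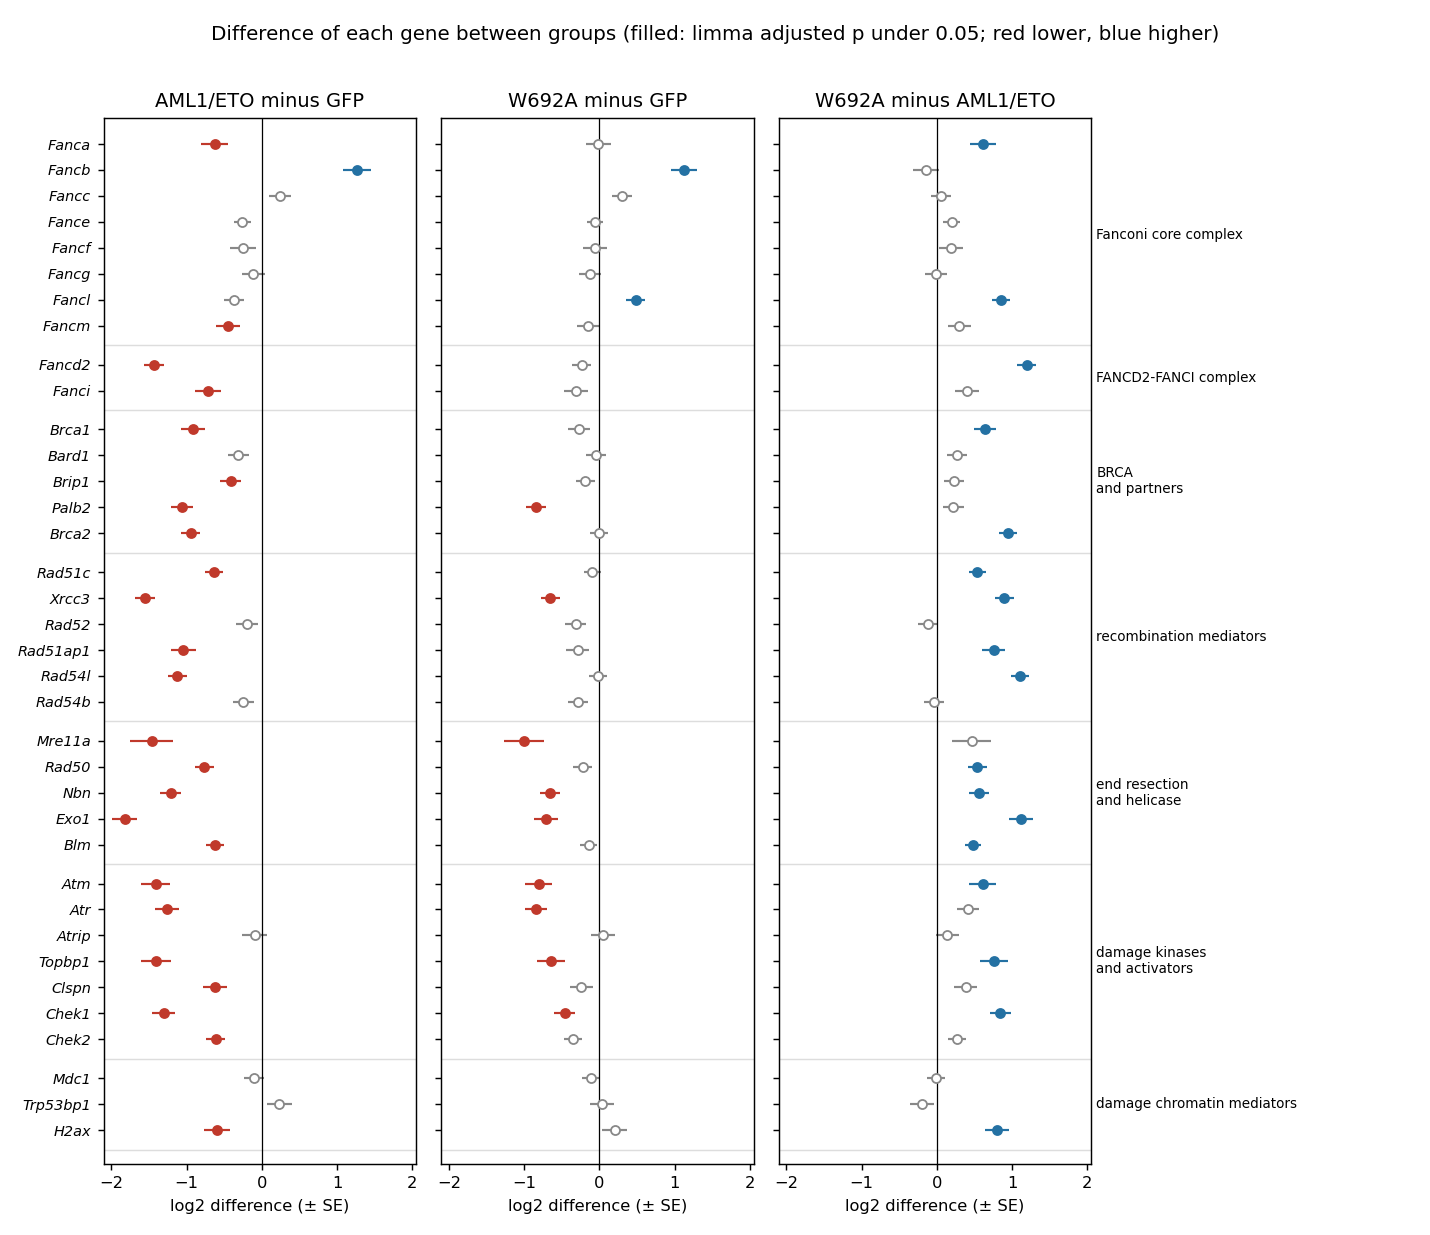
Log2 difference (x axis, with its SE) of each of the 36 measured genes (y axis, grouped by role) in the 3 comparisons, with filled points for a limma adjusted p under 0.05. In AML1/ETO minus GFP 24 points are filled to the left of 0 and 1, Fancb, to the right, and in W692A minus AML1/ETO all 17 filled points lie to the right.

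In the core complex 2 of 8 measured genes fell with AML1/ETO (25%, Fanca and Fancm) and 1 rose (12.5%). Over all genes 15.8% fell and 12.9% rose, and above the background bound 29.9% and 22.7%, so these counts lay near the general shares. For the counts by role below, 9.07% of all genes fell with W692A (17.7% above the bound). W692A was higher than AML1/ETO in 9.61% of all genes (19.2% above the bound). Fancb, the gene that rose, encodes a subunit of the core complex that binds FANCL. It read 3.98, 3.75 and 3.83 with GFP, 5.09, 4.83 and 5.43 with AML1/ETO, and 5.24, 5.20, 4.54 and 4.93 with W692A. Every array of either fusion thus lay above every GFP array, and the 2 fusions overlapped. Against GFP, Fancb rose 2.40-fold with AML1/ETO (1.26 ± 0.18, the log2 difference and its SE, adjusted p = 8.07e-05) and 2.18-fold with W692A (1.12 ± 0.17, adjusted p = 0.00044). The difference between the fusions was -0.14 (95% confidence interval -0.51 to 0.23). A second Fancb probe set, below the background bound in every group mean, differed by 0.75 and 0.63 in the same direction.

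Fancl, the ligase, split the 2 fusions. Its values were 6.30, 6.17 and 6.13 with GFP, 5.94, 5.83 and 5.71 with AML1/ETO, and 6.82, 6.86, 6.62 and 6.42 with W692A, with no overlap between any 2 groups. It was 1.81-fold higher with W692A than with AML1/ETO (0.85 ± 0.13, adjusted p = 0.000161) and 1.40-fold higher than with GFP (0.48 ± 0.13, adjusted p = 0.0174, a call lost without GFP replicate 2 or 3 or W692A replicate 2). AML1/ETO differed from GFP by -0.37 (adjusted p = 0.05, not under the threshold, though it passed without W692A replicate 2 or 4). Fanca, a core subunit, read 3.94, 3.46 and 3.52 with GFP and 2.69, 3.02 and 3.33 with AML1/ETO. It was 3.62, 3.84, 3.34 and 3.71 with W692A, which overlapped GFP and not AML1/ETO. Fanca fell 1.55-fold with AML1/ETO (adjusted p = 0.0148) and was 1.53-fold higher with W692A than with AML1/ETO (adjusted p = 0.0161). Both calls were lost without AML1/ETO replicate 1. The first was also lost without GFP replicate 1 and with the Gapdh difference or the spike-in level as a covariate. Fancm, the DNA translocase that anchors the complex, fell by 0.45 with AML1/ETO (adjusted p = 0.0464), a call lost in 9 of 21 alternatives, among them leaving out any AML1/ETO array, GFP replicate 1 or 2 or W692A replicate 2 or 4. Fancc, Fance, Fancf and Fancg, the other core subunits, passed no test, and Fance and Fancg lay below the background bound in every group mean. The Fancc probe set used differed by 0.24 with AML1/ETO, whereas another Fancc probe set differed by -0.68 (adjusted p = 0.0217, over all probe sets), so the direction for this gene was not settled.

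Both genes of the ubiquitinated pair fell with AML1/ETO. Fancd2, the protein that the core complex marks, read 3.89, 3.60 and 3.80 with GFP and 2.39, 2.54 and 2.08 with AML1/ETO. With W692A it read 3.51, 3.51, 3.50 and 3.60, just under the lowest GFP array and above every AML1/ETO array. The fall with AML1/ETO was 2.69-fold (-1.43 ± 0.13, adjusted p = 1e-06), and W692A was 2.29-fold above AML1/ETO (1.19 ± 0.13, adjusted p = 7.98e-06). Between W692A and GFP the difference was -0.23 (95% confidence interval -0.50 to 0.03, adjusted p = 0.27). Fanci, its partner, was dim. It read 2.79, 2.00 and 2.17 with GFP and was below the bound on all 3 AML1/ETO arrays, a fall of at least 1.22-fold with the dim arrays set to the bound (-0.71, adjusted p = 0.0053). Without GFP replicate 1 the difference was -0.47.

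Of BRCA1, BRCA2 and their partners, 4 of 5 measured genes fell with AML1/ETO and 1, Palb2, also fell with W692A. Brca1, a ubiquitin ligase that promotes resection and brings in PALB2, read 6.46, 6.47 and 6.63 with GFP, 5.56, 5.39 and 5.87 with AML1/ETO, and 6.35, 6.39, 5.90 and 6.36 with W692A. W692A replicate 3 was next to the highest AML1/ETO array, and the other 3 W692A arrays were just under GFP. Brca1 fell 1.88-fold with AML1/ETO (-0.91 ± 0.15, adjusted p = 0.000297) and was 1.56-fold higher with W692A than with AML1/ETO (adjusted p = 0.00461). Against GFP, W692A differed by -0.27 (95% confidence interval -0.58 to 0.04).

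Brca2, a central protein of recombination, fell with AML1/ETO alone. It read 5.26, 5.06 and 5.05 with GFP, 4.24, 4.11 and 4.19 with AML1/ETO, and 5.26, 5.28, 4.92 and 5.03 with W692A, so that W692A spanned the GFP arrays and AML1/ETO lay apart. The fall with AML1/ETO was 1.92-fold (-0.94 ± 0.13, adjusted p = 3.76e-05), the difference between the fusions was 0.94 ± 0.12 (adjusted p = 4.61e-05), and the interval for W692A against GFP ran from -0.26 to 0.25. Palb2, which links BRCA1 to BRCA2, did otherwise. It read 3.85, 4.08 and 4.08 with GFP, 3.06, 2.73 and 3.02 with AML1/ETO, and 3.18, 3.27, 2.85 and 3.33 with W692A, so that the fusions overlapped below the vector. Palb2 fell 2.09-fold with AML1/ETO (-1.06 ± 0.15, adjusted p = 4.39e-05) and 1.79-fold with W692A (-0.84 ± 0.14, adjusted p = 0.000653), and the fusions differed by 0.22 (95% confidence interval -0.07 to 0.51). Bard1, the partner of BRCA1, and Brip1, its helicase, lay below the background bound in every group mean. Brip1 was nevertheless called lower with AML1/ETO (-0.41, adjusted p = 0.0353), with overlapping arrays, and no fold is given for it. That call was lost in 8 of 19 alternatives, among them leaving out GFP replicate 1 or 2 or AML1/ETO replicate 1 or 3.

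Among the recombination mediators, 4 of 6 measured genes fell with AML1/ETO, and the same 4 were higher with W692A than with AML1/ETO (Rad51c, Xrcc3, Rad51ap1 and Rad54l). Xrcc3 and Rad51c encode proteins that work as a pair in recombination. Xrcc3 read 3.51, 3.73 and 3.90 with GFP, 2.02, 2.11 and 2.34 with AML1/ETO, and 3.13, 2.87, 3.12 and 3.11 with W692A, so that the 3 groups did not overlap. It fell at least 2.92-fold with AML1/ETO (-1.55 ± 0.14, adjusted p = 5.36e-07), where 1 array was below the bound, and 1.57-fold with W692A (-0.65 ± 0.13, adjusted p = 0.00267), and the fusions differed by 0.90 ± 0.13 (adjusted p = 0.000121). The suffix of its probe set marks probes that may also match other transcripts. Rad51c fell 1.55-fold with AML1/ETO (adjusted p = 0.000805) and was 1.45-fold higher with W692A than with AML1/ETO (adjusted p = 0.0027).

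Rad54l, a motor protein of recombination, had the same order of groups as Brca2. Its values were 5.29, 5.14 and 5.19 with GFP, 4.02, 4.06 and 4.17 with AML1/ETO, and 5.20, 5.44, 5.02 and 5.08 with W692A, which again spanned GFP. It fell 2.18-fold with AML1/ETO (-1.12 ± 0.13, adjusted p = 7.01e-06) and was 2.15-fold higher with W692A than with AML1/ETO (1.10 ± 0.12, adjusted p = 1.11e-05), and 2 further probe sets above the bound differed by -1.19 and -1.05 with AML1/ETO against GFP. Rad51ap1, which stimulates strand exchange, read 7.15, 7.45 and 7.06 with GFP, 5.91, 6.07 and 6.55 with AML1/ETO, and 6.94, 6.90, 6.80 and 7.08 with W692A. AML1/ETO was the lowest group with no overlap, a fall of 2.06-fold (adjusted p = 0.000137), and W692A was 1.69-fold above it (adjusted p = 0.00203). Rad52, below the bound, and Rad54b, the relative of Rad54l, passed no test, and Rad54b differed by -0.25 and -0.28 from GFP in the 2 fusions.

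Every measured gene of end resection, 5 of 5, fell with AML1/ETO, and 3 of them fell with W692A. Exo1, the nuclease of long-range resection, had the largest fall of the 36 genes. It read 5.63, 5.87 and 5.79 with GFP, 3.69, 3.74 and 4.39 with AML1/ETO, and 5.03, 5.27, 4.92 and 4.99 with W692A. The W692A arrays lay between the 2 other groups with no overlap. Exo1 fell 3.54-fold with AML1/ETO (-1.82 ± 0.17, adjusted p = 9.61e-07) and 1.64-fold with W692A (-0.71 ± 0.16, adjusted p = 0.00692), and was 2.16-fold higher with W692A than with AML1/ETO (1.11 ± 0.16, adjusted p = 0.000127).

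Mre11a, Rad50 and Nbn encode the complex that binds broken ends and starts resection. Mre11a read 4.54, 5.05 and 5.15 with GFP, 3.04, 3.18 and 4.12 with AML1/ETO, and 3.45, 4.51, 3.76 and 3.91 with W692A. Its spread within the fusion groups was wide, and the fusions overlapped. It fell 2.76-fold with AML1/ETO (-1.46 ± 0.28, adjusted p = 0.000875) and 2.00-fold with W692A (SE 0.26 on the log2 scale, adjusted p = 0.0181). The second call was lost without GFP replicate 2 and without GFP replicate 3, and the difference between the fusions was 0.46 (95% confidence interval -0.10 to 1.02), or 0.80 and called without AML1/ETO replicate 3 (adjusted p = 0.0337).

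Nbn, the subunit that recruits ATM, was tighter. It read 5.02, 4.89 and 4.92 with GFP, 3.73, 3.50 and 3.96 with AML1/ETO, and 4.36, 4.50, 4.24 and 4.05 with W692A, and no 2 groups overlapped. Nbn fell 2.32-fold with AML1/ETO (-1.21 ± 0.14, adjusted p = 1.05e-05) and 1.57-fold with W692A (-0.65 ± 0.13, adjusted p = 0.00391), and the fusions differed by 0.56 ± 0.13 (adjusted p = 0.00723, a call lost without AML1/ETO replicate 2). Rad50 fell 1.70-fold with AML1/ETO (adjusted p = 0.000304) and was 1.45-fold higher with W692A than with AML1/ETO (adjusted p = 0.00451). Blm, the helicase mutated in Bloom syndrome, fell 1.54-fold (adjusted p = 0.000726) and was 1.40-fold higher with W692A (adjusted p = 0.0051). Neither Rad50 nor Blm passed the test between W692A and GFP.

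**Figure D2:**
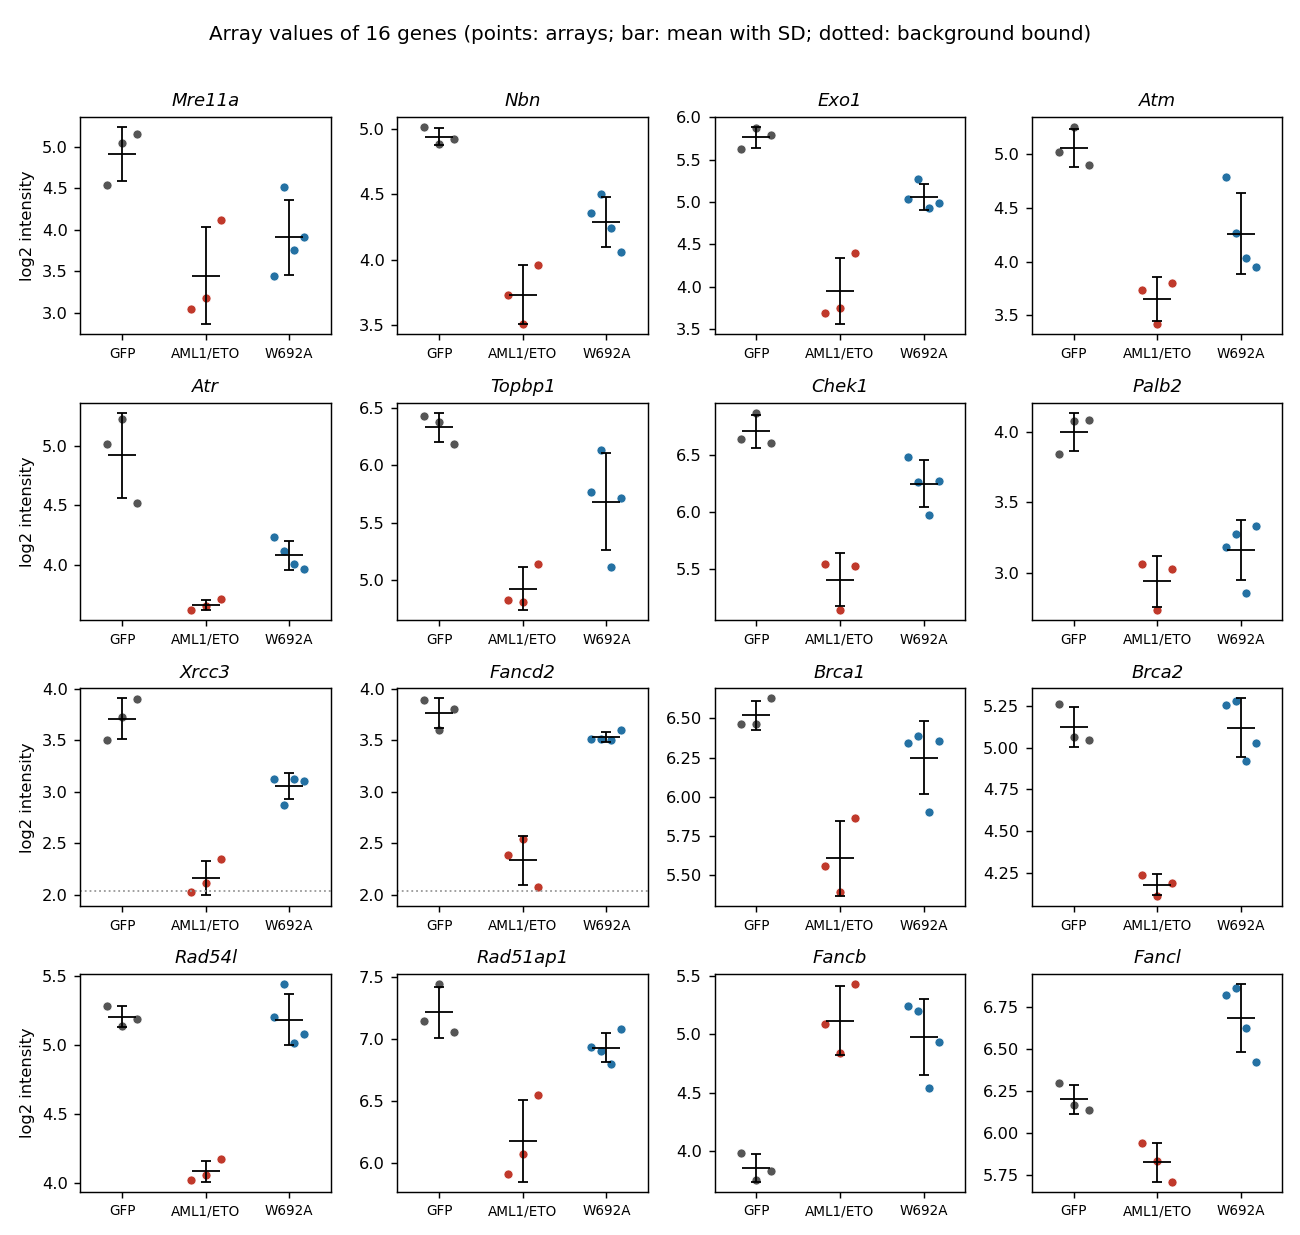
Log2 intensity (y axis) of 16 genes on each array in the GFP, AML1/ETO and W692A groups (x axis), with the group mean and SD and, where it falls in the panel, the background bound of 2.04. The AML1/ETO points have the lowest group mean in every panel but that of Fancb, and the W692A points sit at the GFP level for Brca2 and Rad54l and between the other groups for Exo1, Nbn and Xrcc3.

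Of the damage kinases and their activators, 6 of 7 measured genes fell with AML1/ETO and 4 with W692A. Atm, the kinase that answers double-strand breaks, read 5.02, 5.26 and 4.91 with GFP, 3.74, 3.41 and 3.80 with AML1/ETO, and 4.79, 4.26, 4.04 and 3.95 with W692A. All arrays of either fusion were below GFP, and the W692A arrays spread from near GFP to near AML1/ETO. Atm fell 2.66-fold with AML1/ETO (-1.41 ± 0.19, adjusted p = 3.94e-05) and 1.74-fold with W692A (-0.80 ± 0.18, adjusted p = 0.00681). The fusions differed by 0.61 ± 0.18 (adjusted p = 0.024), a call lost without AML1/ETO replicate 2. A second Atm probe set above the bound differed by -1.24 and -0.67 from GFP in the 2 fusions.

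Atr, the kinase that answers stalled forks, read 5.02, 5.23 and 4.52 with GFP, 3.62, 3.65 and 3.71 with AML1/ETO, and 4.23, 4.12, 4.00 and 3.96 with W692A. The 3 groups did not overlap, and GFP was the most spread. Atr fell 2.40-fold with AML1/ETO (-1.26 ± 0.16, adjusted p = 1.67e-05) and 1.80-fold with W692A (-0.84 ± 0.15, adjusted p = 0.00112), and the difference of 0.42 between the fusions did not pass (adjusted p = 0.0578), although it did in 9 of 21 alternatives, among them leaving out GFP replicate 2 or 3. Topbp1, which activates ATR, read 6.43, 6.38 and 6.18 with GFP, 4.83, 4.81 and 5.14 with AML1/ETO, and 5.77, 6.14, 5.11 and 5.71 with W692A. Here W692A replicate 3 lay within the AML1/ETO arrays. Topbp1 fell 2.65-fold with AML1/ETO (-1.40 ± 0.20, adjusted p = 6.08e-05) and 1.57-fold with W692A (-0.65 ± 0.19, adjusted p = 0.0304). The second call was lost without GFP replicate 1 or 2 and without W692A replicate 3 or 4. The fusions differed by 0.76 ± 0.19 (adjusted p = 0.00859).

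Chek1, the kinase downstream of ATR, read 6.65, 6.88 and 6.61 with GFP, 5.55, 5.14 and 5.53 with AML1/ETO, and 6.49, 6.27, 5.98 and 6.28 with W692A, in 3 groups that did not overlap. It fell 2.47-fold with AML1/ETO (-1.31 ± 0.15, adjusted p = 9.24e-06) and was 1.80-fold higher with W692A than with AML1/ETO (0.85 ± 0.14, adjusted p = 0.000532). Its fall of 1.37-fold with W692A (adjusted p = 0.0432) was lost in 10 of 21 alternatives, among them leaving out any GFP array or W692A replicate 2, 3 or 4. Chek2, the kinase downstream of ATM, read 6.62, 6.53 and 6.43 with GFP, 5.78, 5.81 and 6.13 with AML1/ETO, and 6.16, 6.22, 6.03 and 6.31 with W692A. All arrays of both fusions were below GFP, and the fusions overlapped. Chek2 fell 1.53-fold with AML1/ETO (-0.62 ± 0.13, adjusted p = 0.00166), a call lost with the Gapdh covariate. Its difference of -0.34 with W692A did not pass (adjusted p = 0.0724). Clspn, the adaptor that brings CHEK1 to ATR, was below the background bound on every array and was called lower with AML1/ETO (-0.62, adjusted p = 0.00769), so no fold is given. Atrip, the partner of ATR, was below the bound and passed no test.

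Of the chromatin mediators of the damage signal, H2ax fell and Trp53bp1 and Mdc1 passed no test. H2ax, the histone variant phosphorylated at breaks, read 4.71, 4.87 and 4.82 with GFP, 3.86, 4.33 and 4.40 with AML1/ETO, and 4.67, 4.90, 5.32 and 5.12 with W692A. AML1/ETO was lowest with no overlap, and W692A overlapped GFP. The fall with AML1/ETO was 1.52-fold (adjusted p = 0.0149). That call was lost without AML1/ETO replicate 1 or GFP replicate 2, and with the Gapdh difference or the spike-in level as a covariate. H2ax was 1.75-fold higher with W692A than with AML1/ETO (0.81 ± 0.16, adjusted p = 0.00203). Trp53bp1, which shields ends from resection, differed by 0.23 with AML1/ETO (95% confidence interval -0.13 to 0.59) and by 0.03 with W692A. Mdc1 was below the bound in every group mean.

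Across the 3 tests, 10 genes fell with AML1/ETO, were higher with W692A than with AML1/ETO and passed no test between W692A and GFP (Fanca, Fancd2, Brca1, Brca2, Rad51c, Rad51ap1, Rad54l, Rad50, Blm and H2ax). A further 6 fell with both fusions and were higher with W692A than with AML1/ETO (Xrcc3, Nbn, Exo1, Atm, Topbp1 and Chek1), and 3 fell with both with no called difference between the fusions (Palb2, Mre11a and Atr). The last pattern does not show that the fusions acted alike on these 3 genes, since the intervals reached 0.51, 1.02 and 0.73. Another 5 fell with AML1/ETO alone among the 3 tests (Fancm, Fanci, Brip1, Clspn and Chek2). In the probe sets not used, 10 of 45 were above the background bound. Of these, 7 belonged to genes called for AML1/ETO against GFP, and all 7 were called in the same direction. For W692A against GFP this held for 2 of 3 and for W692A against AML1/ETO for 5 of 7, and the others had the same sign without a call. When all probe sets of a gene were averaged instead, most of them below the bound, 11 of the 25 called differences shrank by more than 1.5 times (Atr, Brca1, Chek1, Exo1, Fanca, Fancd2, Fanci, Mre11a, Rad50, Rad51c and Xrcc3), and 25 genes were called. In the same way 4 of the 11 differences of W692A from GFP shrank (9 genes called), and 8 of the 17 between the fusions (15 genes called). Over all genes 4985, 2216 and 3423 were called after averaging, in the same order of comparisons.

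The wider pathway was read in 57 other genes of the same processes, a list chosen with earlier results of these data known. With AML1/ETO 30 of the 57 fell (52.6%, against 15.8% of all genes) and 1 rose, with a median of -0.52. Above the bound 28 of 48 fell, where 29.9% of all such genes did. Eme1, a subunit of a junction-cutting nuclease, fell most (6.25, 6.02 and 6.12 with GFP against 4.68, 4.55 and 4.64 with AML1/ETO, a difference of -1.50), followed by the clamp loader subunit Rfc5 (-1.38) and the fork protein Timeless (-1.22). The gene that rose was Brcc3, a deubiquitinase of the BRCA1-A complex, which differed from GFP by 0.68 with either fusion. With W692A 11 of the 57 fell (19.3%, against 9.07% of all genes). Above the bound 10 of 48 fell, near the 17.7% of all such genes. Among the 11 were Hus1 (-0.84) and Rad1 (-0.74), subunits of the checkpoint clamp, and Etaa1, an ATR activator (-0.80). Against AML1/ETO, W692A was higher in 18 of the 57 (31.6%, against 9.61% of all genes) and lower in 0. Above the bound in either of these groups 17 of 47 were higher, where 19.2% of all such genes were. The 18 were led by the mitotic phosphatase Cdc25c (1.57) and the clamp loader subunits Rfc4 (1.23) and Rfc5 (1.18).

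Nearly all measured cell cycle genes fell with AML1/ETO and were higher with W692A than with AML1/ETO. Of 27 measured S phase and replication genes 26 fell with AML1/ETO, with a median of -1.08, among them Orc1, an origin binding protein (-1.78), and Tk1, the thymidine kinase of S phase (-1.46). Of 26 measured genes of G2 and M phase all 26 fell, with a median of -1.03, among them Aurkb (-1.69) and Tacc3 (-1.52), which act at the spindle. With W692A 5 of the S phase genes (18.5%) and 4 of the G2 and M phase genes (15.4%) fell against GFP, near the 17.7% of all genes above the bound. Against AML1/ETO 26 (96.3%) and 26 (100%) were higher with W692A, where 19.2% of all genes above the bound were higher. The mean over the 36 Fanconi, recombination and checkpoint genes was 4.16 ± 0.0610 (SD over 3 arrays) in the GFP group, 3.49 ± 0.114 (3 arrays) under AML1/ETO and 3.94 ± 0.0782 (4 arrays) under W692A. The mean of the S phase genes, in the same order, was 7.05 ± 0.0320, 5.98 ± 0.171 and 6.83 ± 0.0281. The part of the cell cycle genes in the results above was not tested. In bulk RNA, fewer cells that express a gene and less of its RNA per cell cannot be told apart.

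**Figure D3:**
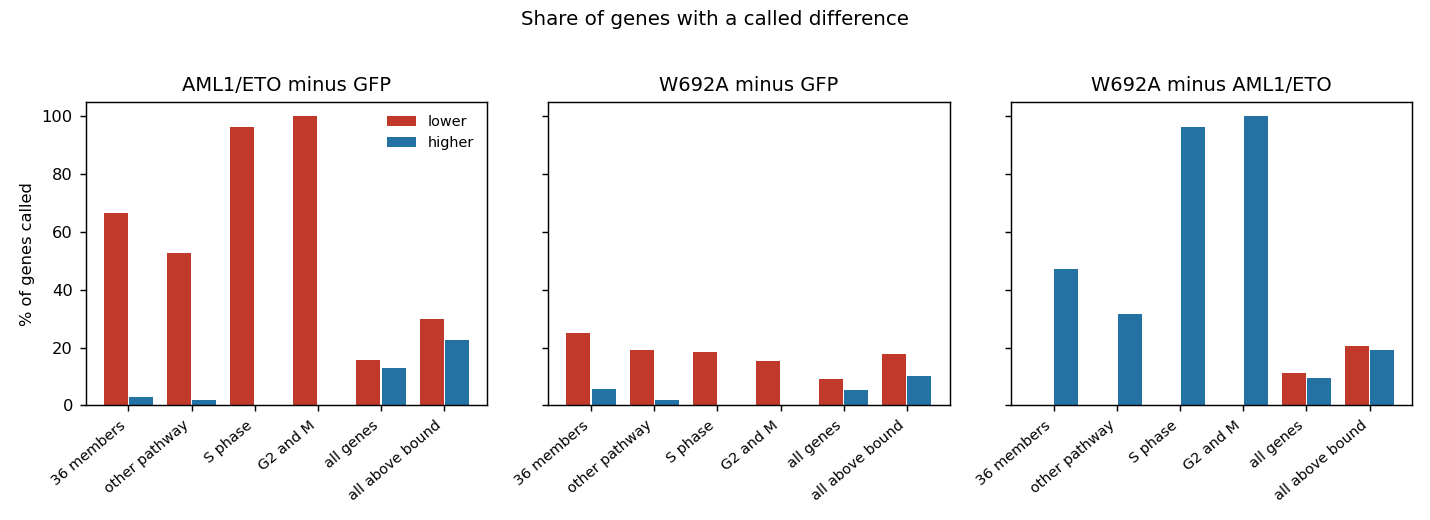
Share of genes called lower (red) and higher (blue) in each comparison (y axis, % of the genes measured), for the 36 genes, the 57 other pathway genes, the S phase list, the G2 and M phase list, all 18193 genes and all genes above the background bound. In AML1/ETO minus GFP the lower share is 66.7% for the 36 genes, 96.3% for S phase and 100% for G2 and M phase, against 15.8% of all genes and 29.9% of those above the bound.

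**Figure D4:**
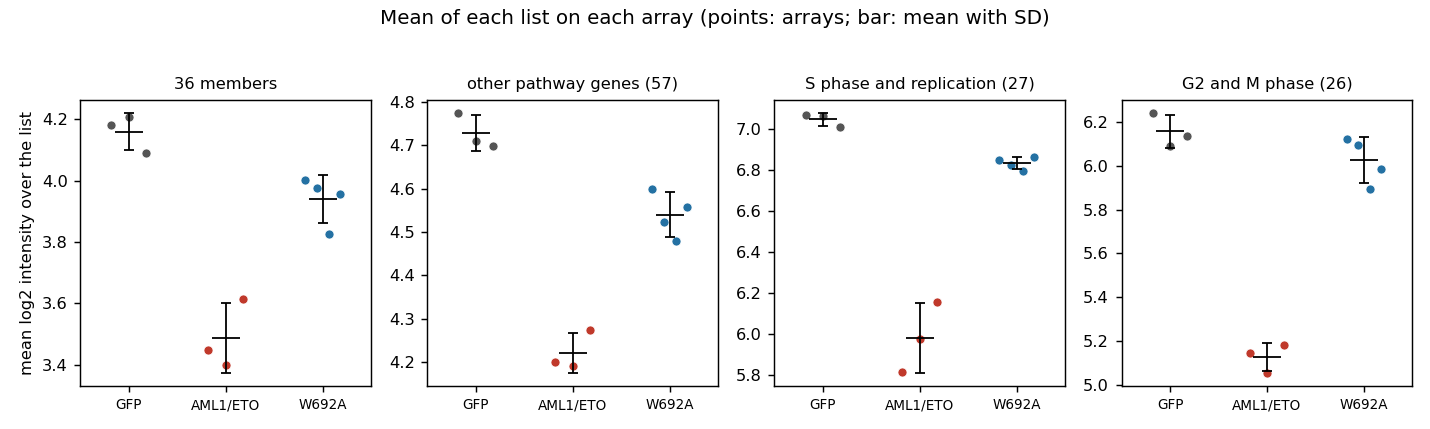
Mean log2 intensity over each list (y axis) on each array by group (x axis), with the group mean and SD. In all 4 lists every AML1/ETO array lies below every other array, and the W692A means of the 36 genes (3.83 to 4.00) lie below those of GFP (4.09 to 4.21).

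Markers of other cells were read beside these genes. Of all genes above the bound 52.6% were called with AML1/ETO and 27.8% with W692A against GFP. Of 7 measured monocyte and macrophage genes, 6 of them above the background bound (not Itgam), 5 rose with AML1/ETO and 5 with W692A, and the mean of their log2 values was 4.87 to 5.10 with GFP, 6.00 to 6.36 with AML1/ETO and 5.71 to 5.99 with W692A. Of 11 measured neutrophil and granule genes, 10 of them above the bound (not Mmp9), 2 rose and 4 fell with AML1/ETO and 2 rose and 6 fell with W692A, or 54.5% and 72.7% called (4.76 to 5.06 with GFP, 4.64 to 5.06 and 4.36 to 4.70). Of 6 measured erythroid genes, 2 of them above the bound (not Hba-a1, Epor, Alas2 and Slc4a1), 3 fell with either fusion (2.26 to 2.57 with GFP, 1.65 to 1.87 and 1.95 to 2.02). Only 2 of these 3 were above the bound. Of 13 measured stem and progenitor genes, 12 of them above the bound (not Kit), 9 rose and 1 fell with AML1/ETO and 8 rose and 1 fell with W692A (4.78 to 4.90 with GFP, 6.08 to 6.18 and 5.52 to 5.74). Kit was among the 9, of which 8 were above the bound. The part of these cells in the results was not tested. Over all genes the balance of calls depended on scaling: 991 rose and 1651 fell with W692A against GFP as deposited and 1262 and 1352 after a further quantile normalization, and 1748 were higher and 2017 lower with W692A than with AML1/ETO as deposited and 2220 and 1682 with each array's median subtracted. Under these scalings the W692A counts among the 36 genes were 2 risen and 8 fallen against GFP, and no gene was called lower with W692A than with AML1/ETO.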

How the data were processed

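The authors deposited a table of log2 intensities with a value for each probe set on each array. Per the submitters' processing notes these come from RMA, of unstated version. The log base is not stated either, and base 2 was used because the highest value, 12.77, would as a natural log (350219) exceed a 16-bit scanner's maximum of 65535. Of 45101 probe sets, 34945 non-control probe sets had 1 gene in the platform annotation. Symbols were updated by gene ID (GRCm38.p6), and the probe set with the highest mean stood for each of 18193 genes. One limma fit (version 3.58.1, R 4.3.3; lmFit and eBayes) held all 3 groups (residual degrees of freedom 7, prior 7.53), with p-values adjusted over all genes (Benjamini-Hochberg, threshold 0.05). On simulated data for AML1/ETO minus GFP (18193 genes), 100 genes were changed 1.5-fold and 100 2-fold. The fit recovered 34% of the 1.5-fold and 79% of the 2-fold changes. The real comparison called 5207 genes, which moves the p-value cutoff, so these shares do not give the recovery in it. A fold with an array of the dimmer group under the background bound is given as "at least", with arrays set to the bound.

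The genes and lists were chosen with earlier results of these data known. Array values are given for the 12 non-overlapping called genes with the largest difference per comparison with a mean above the bound, for Atm, Atr, Chek1, Chek2, Brca1, Brca2 and Fancd2, and for genes called against the main direction; other pathway genes are named by the 3 largest falls and rises and cell cycle genes by the 2 largest changes. Alternatives were the probe set, filters on dim genes, scaling, variance prior, array weights, samples in the fit, a replicate block, Gapdh and spike-in covariates, a 1.5-fold minimum and leaving out each array. The number of arrays limits the precision.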

Additional observations from a re-analysis of the deposited data

Results flagged for a closer look

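In each of the 36 genes the 4 W692A arrays were checked for a highest or lowest value far from the other 3, with Dixon's criterion, and 4 genes had one. Chance gives about 1 in 20 such groups. Fancd2 was 3.60 on W692A replicate 4, against 3.50 to 3.51 on the others. Brca1 was 5.90 on W692A replicate 3, against 6.35 to 6.39. Xrcc3 was 2.87 on W692A replicate 2, against 3.11 to 3.13. Trp53bp1 was 7.59 on W692A replicate 3, against 7.92 to 7.98. Groups of 3 arrays were not checked.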

How the results depend on the processing

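Over the alternatives other than a 1.5-fold minimum, each tried on 1 choice at a time, 20 of the 25 genes called for AML1/ETO against GFP were called wherever they were tested (not Fanca, Fancm, Brip1, Chek2 and H2ax), as were 12 of 17 for W692A against AML1/ETO (not Fanca, Rad51c, Rad50, Nbn and Atm) and 1 of 11, Fancb, for W692A against GFP. Clspn, counted among the 20, was not tested where only genes above the background bound were kept. A 1.5-fold minimum left 23, 13 and 9 genes in these 3 comparisons, in that order. Over all 18193 genes it left 1736 higher and 2046 lower, 987 and 1330, and 574 and 1063. With the Gapdh difference as a covariate, W692A against GFP gave 1 called gene among the 36 and 506 over all genes. It gave 0 of the other pathway genes, 1 of the S phase genes and 0 of the G2 and M phase genes. The differences of Brca1 (0.18) and Mre11a (0.026) turned positive. The fit's errors also grew, as given above, and the covariate separates these groups. Whether the smaller differences or the larger errors ended the calls was not tested. In the same comparison averaging probe sets left 6 other pathway genes, and a 1.5-fold minimum left 7 other pathway, 2 S phase and 1 G2 and M phase genes. For the other settings the cause was not tested either. Leaving out each array gave 21 to 25, 7 to 11 and 15 to 18 called of the 36 genes in AML1/ETO minus GFP, W692A minus GFP and W692A minus AML1/ETO. Over all genes it gave 4477 to 5319, 1774 to 2615 and 2943 to 3777. The other pathway genes gave 27 to 35, 8 to 13 and 14 to 18, the S phase genes 25 to 27, 4 to 7 and 23 to 27, and the G2 and M phase genes 23 to 26, 1 to 4 (1 without GFP replicate 1) and 24 to 26. The replicate block gave 25, 9 and 16 of the 36, and 5272, 2344 and 3509 over all genes. The block ended the calls of Brip1 for AML1/ETO against GFP, of Topbp1 and Chek1 for W692A against GFP and of Fanca for W692A against AML1/ETO. The labels' numbers did not meet the bar for pairing, an r over 0.1 in every pair: same-numbered arrays' deviations correlated at -0.12 to 0.44, over 0.1 in 4 of 9 pairs, 3 of them the pairs of replicate 1, and 5 of 10 arrays correlated best with their own number. Genes near or below the background bound, such as Fanci, Brip1 and Clspn, have differences that understate or cannot give a fold.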
